A study of Homo sapiens with 12 samples.

Results

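The ELOVL family, the elongases of very long chain fatty acids, was followed across 12 RNA-seq libraries of A498 cells, a line grown from a human kidney carcinoma. Its 7 members, ELOVL1 to ELOVL7, were taken by gene symbol from the 57773 genes of the deposited table. The cells had been transfected with an siRNA against ELOVL2 (siELOVL2), with an siRNA against ELOVL5 (siELOVL5), with both (double knockdown) or with a control siRNA, in 3 biological replicates each. Every group is the same cell line and received an siRNA. For the siRNAs, sequence, dose and time are not stated in the labels.

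Fatty acids are lengthened in the endoplasmic reticulum by a cycle of condensation, reduction, dehydration and a further reduction, and an ELOVL enzyme carries out the condensation of an acyl-CoA with malonyl-CoA, which sets the rate. The members differ in the chains they accept. ELOVL2, ELOVL4 and ELOVL5 act on polyunsaturated chains. ELOVL1, ELOVL3, ELOVL6 and ELOVL7 act on saturated and monounsaturated chains, with ELOVL6 at the start of the series, on palmitate, and ELOVL1 on the longest saturated chains, which go into sphingolipids.

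The catalytic centre common to the family is the histidine box, a short stretch of His-X-X-His-His. It is shown for all members because all of them carry it and because it shows how their letters differ. The lines below give the coding strand of 1 GENCODE 29 transcript a gene, with the 5 codons of the box in capitals and 6 bases on either side in lower case.
ELOVL1: ttcctaCATGTCTTCCATCACtctgtg
ELOVL2: tttcttCATGTATATCATCATgcttct
ELOVL3: tttattCACTGGTACCACCACagcaca
ELOVL4: ttccttCATGTGTATCATCACtgtacg
ELOVL5: gtcctgCACGTCTACCACCATgcctcg
ELOVL6: ttcctgCACTGGTATCACCACatcact
ELOVL7: ttccttCATGTATTCCATCATaccatc
The histidine box was searched in frame on the coding strand, as a histidine codon, any 2 codons and 2 more histidine codons, and was found once in each of the 7 coding sequences. The same search over the longest complete coding sequence of 19547 genes matched in 2.59% of them, so the letters alone do not mark the family. Of its 15 bases, ELOVL3 and ELOVL6 shared 14 and ELOVL6 and ELOVL7 shared 7, the extremes over the 21 pairs.

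No stretch as long as a 36-base read was identical between any 2 members. Coding identity ran from 46.3% (ELOVL2 and ELOVL6) to 59.7% (ELOVL3 and ELOVL6), and the 2 targeted genes, ELOVL2 and ELOVL5, had 57.6%. The longest run of identical bases between any 2 transcripts was 35 bases, between ELOVL6 and ELOVL7 outside their coding sequences. The coding runs that ELOVL2 shares with ELOVL7 and with ELOVL5 bear on the siRNA targets and are printed for that reason, in capitals throughout because every base is shared.
ELOVL2 and ELOVL7: TCCTACTATGGACTTTCTG
ELOVL2 and ELOVL5: AACATCTGGTGGT
The run shared by ELOVL2 and ELOVL7 had 19 bases, and that shared by ELOVL2 and ELOVL5 had 13. Coding runs not printed here were also shared by a target, with 16 bases for ELOVL5 and ELOVL6 and 14 for ELOVL2 and ELOVL4. Whether either siRNA covers such a stretch was not tested.

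**Figure D1:**
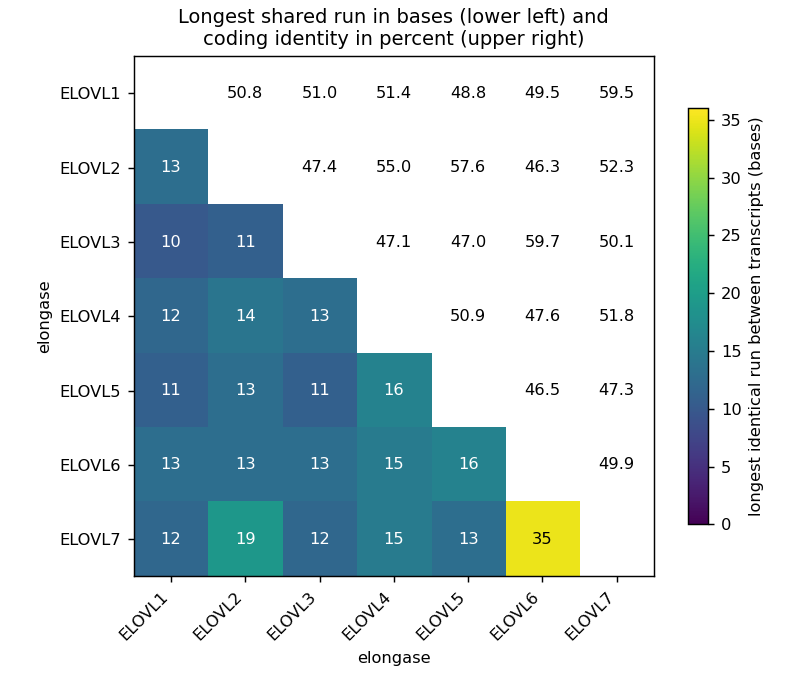
Longest run of identical bases between the transcripts of each pair of elongases (lower left, colour and number, in bases) and identity of their coding sequences (upper right, in percent). Of the 21 pairs, only ELOVL6 and ELOVL7 share a run near the 36-base read length, at 35 bases, and coding identity stays between 46.3% and 59.7%.

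The libraries were of similar depth, estimated at 6.70 to 10.7 M reads, and every library carried the same set of normalized values with a total of 8.525 M, so a value is called a normalized count below. Of the markers of the labelled cells, PAX8 (511 to 677), PAX2 (85.5 to 139), KRT8, KRT18, VIM and CDH6 were present in all libraries, whereas CA9 (2.08 to 29.1) and EPCAM (1 to 7.5) were low. CD3E was at 0 in all libraries and PTPRC, CDH5 and COL3A1 did not pass 2.83, while CD68 and COL1A1 reached 451 and 436. The limma fit over all 4 groups tested 18648 genes, and a gene is called where its Benjamini-Hochberg adjusted p is under 0.05. Differences are log2 fold changes of the normalized count plus 1.

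Both siRNAs lowered their own target in every library that received them. ELOVL2, which lengthens polyunsaturated chains of C20 and C22 on the way to docosahexaenoic acid, stood at 27.0, 30.1 and 18.4 normalized counts in the siELOVL2 libraries and at 25.4, 26.5 and 19.9 in the double knockdown, against 286, 235 and 165 in siELOVL5 and 299, 299 and 211 in the control. All 6 libraries with the ELOVL2 siRNA lay far below the other 6, at 20 to 32 reads each. The remaining level was 9.32% of the control mean in siELOVL2 and 8.87% in the double knockdown. In bulk RNA, a lower level in each cell and a smaller share of cells with the transcript cannot be told apart.

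ELOVL5, which lengthens C18 and C20 polyunsaturated chains, stood at 147, 141 and 156 normalized counts in siELOVL5 and at 177, 172 and 187 in the double knockdown, against 1791, 1994 and 2328 in siELOVL2 and 1939, 1954 and 2038 in the control. The 6 libraries with the ELOVL5 siRNA lay below the other 6 without overlap. The remaining level was 7.48% of the control mean in siELOVL5 and 9.03% in the double knockdown. By limma, the log2 fold changes of ELOVL5 were -3.73 (SE 0.09, adjusted p = 1.36e-10) in siELOVL5 versus control and -3.50 (adjusted p = 3.10e-10) in double knockdown versus siELOVL2. Those of ELOVL2 were -3.38 (SE 0.24, adjusted p = 1.61e-05) in siELOVL2 versus control and -3.17 (adjusted p = 2.30e-05) in double knockdown versus siELOVL5.

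Neither target showed a called response to the other siRNA in the fit without a replicate block. ELOVL2 in siELOVL5 differed from the control by -0.26 on the log2 scale (95% interval -0.78 to 0.26, adjusted p = 0.765 by limma), and ELOVL5 in siELOVL2 by 0.04 (95% interval -0.16 to 0.24, adjusted p = 0.919). The residual ELOVL5 level was higher in all 3 double-knockdown libraries (172 to 187) than in all 3 siELOVL5 libraries (141 to 156). The difference was 0.27 (SE 0.09) with an adjusted p of 0.143 by limma, or 0.0491 with the replicate number as a block. Of all tested genes, 11.4% showed the same lack of overlap in that direction.

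**Figure D2:**
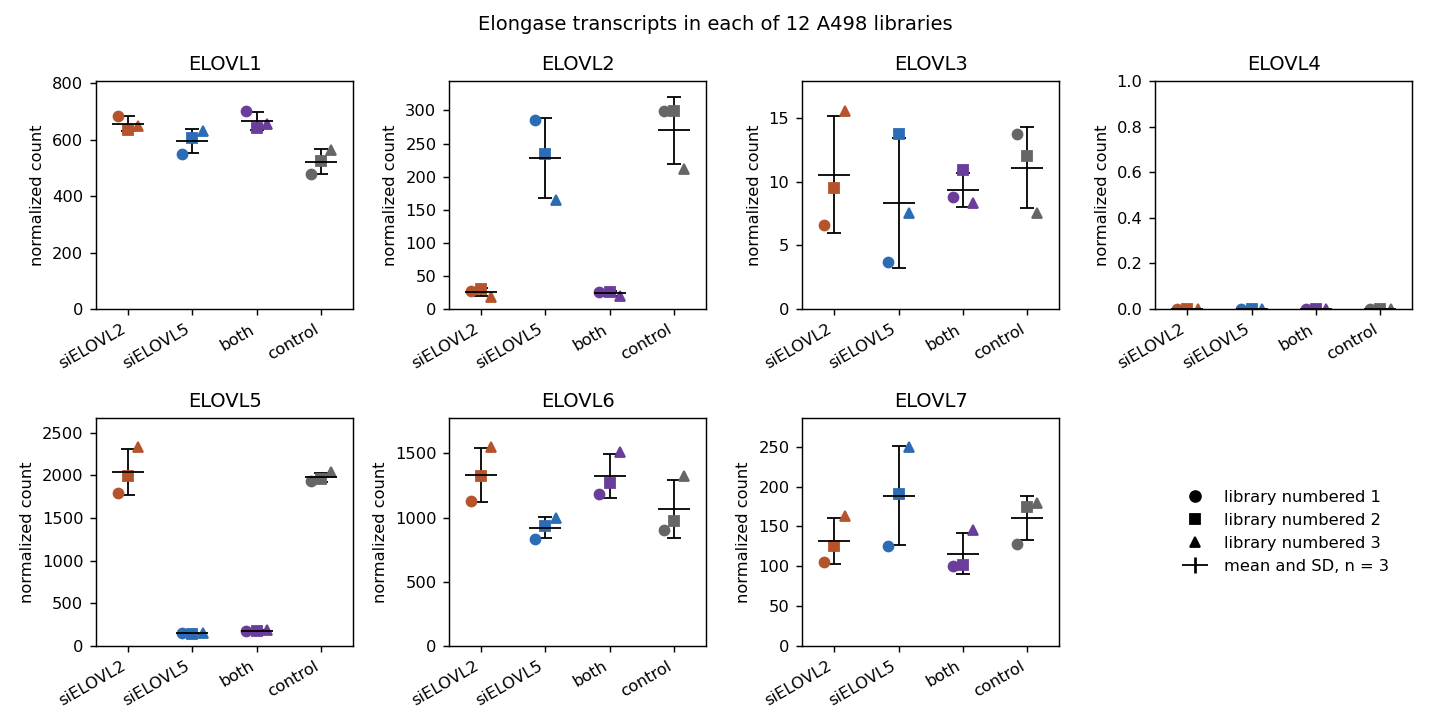
Normalized count of each elongase (vertical axis, from 0, with its own scale in each panel) in the 3 libraries of siELOVL2, siELOVL5, both siRNAs and control; symbols give the library number, and bars the mean and SD (n = 3). ELOVL2 and ELOVL5 are low wherever their siRNA was given, ELOVL1 is higher in all 6 libraries with the ELOVL2 siRNA than in the other 6, and ELOVL4 is at 0 throughout.

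In control cells, ELOVL5 had the highest transcript level of the elongases. Levels of different genes were compared as normalized counts per kb of exon (exon unions of GENCODE 29). On that scale the control libraries had 518 ± 13.9 for ELOVL5, 209 ± 17.4 for ELOVL1, 146 ± 30.9 for ELOVL6, 67.5 ± 12.7 for ELOVL2, 35.1 ± 6.13 for ELOVL7 and 8.10 ± 2.32 for ELOVL3 (SD, n = 3). No neighbours in that order overlapped: the closest were ELOVL1, at 190.5 or more, and ELOVL6, at 182 or less. The order below ELOVL5 depended on the length used. With the mean transcript length in place of the exon union, ELOVL6 (26.4% of the family) stood above ELOVL1 and ELOVL7 (2.89%) above ELOVL2 (2.66%).

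As shares of the family sum per kb of exon union in the control, ELOVL5 held 52.7% ± 1.47, ELOVL1 21.2% ± 0.710, ELOVL6 14.8% ± 2.34, ELOVL2 6.92% ± 1.59, ELOVL7 3.55% ± 0.486 and ELOVL3 0.833% ± 0.275 (SD, n = 3). With the mean transcript length the share of ELOVL5 was 46.4% and that of ELOVL3 0.321%. ELOVL4, the elongase of retina, skin and brain that makes the longest polyunsaturated and saturated chains, had 0 reads in each of the 12 libraries. Counting 3 reads as the limit that 0 reads allow, its level was at most 0.787 to 1.25 per kb, or 0.0819% to 0.239% of the family, depending on the library. These limits cover counting error only. The antisense gene ELOVL2-AS1, the only other gene of the table whose symbol starts with ELOVL, had 0 to 2 reads a library and shares 0 exonic bases with ELOVL2 in GENCODE 29.

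The make-up of the family differed between the treatments. Its summed level per kb was 1022 ± 102 in siELOVL2, 507 ± 29.4 in siELOVL5 and 532 ± 25.9 in the double knockdown, against 984 ± 51.8 in the control (SD, n = 3). Every library with the ELOVL5 siRNA (474 to 561) lay below every library without it (932.5 to 1133). The polyunsaturated elongases ELOVL2, ELOVL4 and ELOVL5 together held 52.8% ± 1.60 of the sum in siELOVL2, 19.1% ± 3.92 in siELOVL5 and 9.93% ± 0.278 in the double knockdown, against 59.7% ± 2.92 in the control. These shares follow from the knocked-down genes themselves and were not tested.

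Per kb of exon union, the order of the members differed too. Other lengths, which changed the order in the control, were compared in the control only, so the orders and shares here hold for that length. In siELOVL5, ELOVL1 led with 238 ± 16.5 per kb, before ELOVL6 (126 ± 11.1), ELOVL2 (57.1 ± 15.2), ELOVL7 (41.2 ± 13.6) and ELOVL5 (38.8 ± 1.95), and the libraries of ELOVL7 overlapped those of both ELOVL2 and ELOVL5. In the double knockdown, ELOVL1 held 50.1% ± 3.42 of the sum and ELOVL6 34.0% ± 2.99, and ELOVL2 (5.99 ± 0.883 per kb) overlapped the rare ELOVL3 (6.83 ± 0.999). In siELOVL2, ELOVL5 held 52.2% ± 1.75 of the sum.

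**Figure D3:**
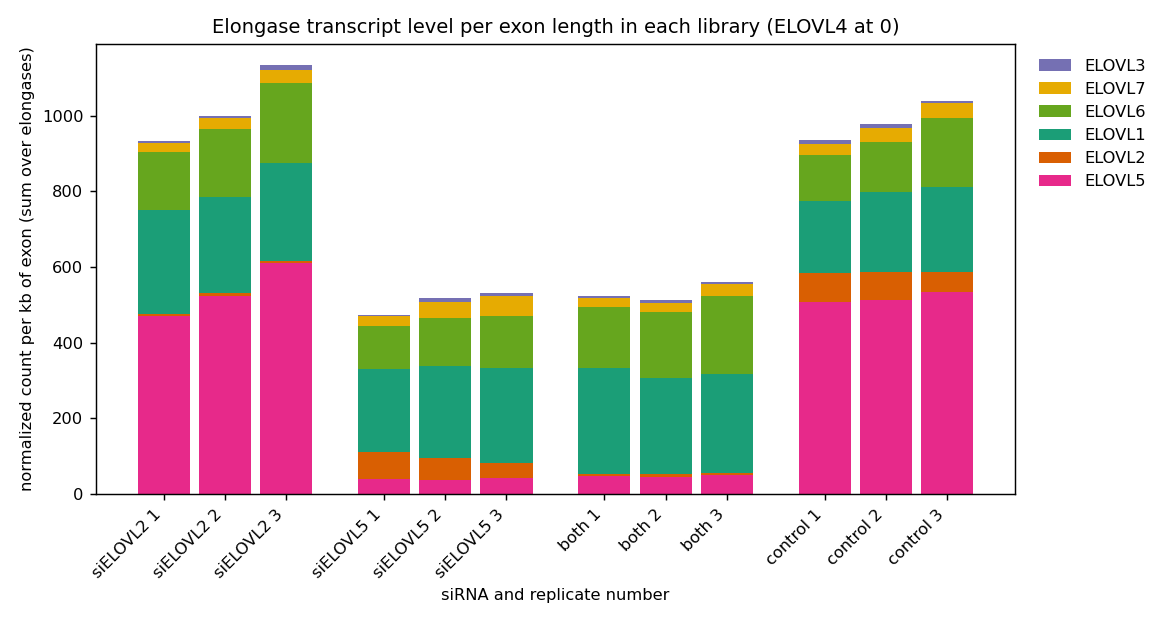
Normalized count per kb of exon, stacked over the elongases, in each of the 12 libraries, with siELOVL2, siELOVL5 and both siRNAs left of the control (ELOVL4, at 0, adds nothing). The stacks with the ELOVL5 siRNA reach 474 to 561 and those without it 932.5 to 1133, and in the double knockdown ELOVL1 (50.1% of the stack on average) and ELOVL6 (34.0%) are its largest parts.

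Among the 5 elongases that neither siRNA targets, only ELOVL1 was called in a pairwise comparison, double knockdown versus control, where both siRNAs differ. It was not called in the comparisons where only the ELOVL2 siRNA differs. ELOVL1, which makes saturated and monounsaturated chains of C22 to C26, stood at 686, 636 and 650.4 normalized counts in siELOVL2 and at 703, 641 and 658 in the double knockdown, against 551, 606 and 632 in siELOVL5 and 478, 526 and 565 in the control. All 6 libraries with the ELOVL2 siRNA (636 to 703) lay above all 6 without it (478 to 632), and 3.51% of tested genes showed that separation. The gap at its narrowest, between siELOVL2 replicate 2 and siELOVL5 replicate 3, was small beside the spread within the groups.

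ELOVL1 was higher in the double knockdown than in the control by 0.35 (SE 0.08, adjusted p = 0.0328 by limma). In siELOVL2 versus control the difference was 0.33 (SE 0.08, 95% interval 0.15 to 0.51, adjusted p = 0.0762 by limma). That adjusted p was 0.0135 with library weights, 0.0386 with the replicate number as a block and 0.0301 without siELOVL5 replicate 3. In double knockdown versus siELOVL5 the difference was 0.16 (95% interval -0.02 to 0.35, adjusted p = 0.344). These last comparisons share no library. Their mean, which sets the 6 libraries with the ELOVL2 siRNA against the 6 without it and was added after the values had been seen, was 0.25 (SE 0.06, adjusted p = 0.0205). The call in double knockdown versus control was lost without control replicates 1 or 2, any double-knockdown library or siELOVL2 replicate 2 (adjusted p 0.0552 to 0.147), without the intensity trend (0.0902) and in a fit of those groups alone (0.0633). The call for the mean was lost without control replicate 1 (0.0563), control replicate 2 (0.0501) or double-knockdown replicate 1 (0.0533) and without the trend (0.0584), while the estimate stayed between 0.22 and 0.28 in all fits that left out a library.

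ELOVL6, which lengthens palmitate to stearate and is a lipogenic gene in liver, stood at 1127, 1327 and 1547 normalized counts in siELOVL2 and at 1182, 1271 and 1512 in the double knockdown, against 834, 937 and 994 in siELOVL5 and 904, 974 and 1325 in the control. The double knockdown lay above siELOVL5 in every library, a separation that 11.4% of all tested genes showed. The siELOVL2 libraries overlapped the control, whose replicate 3 was about as high as the siELOVL2 median. No pairwise difference was called. The estimates were 0.33 (SE 0.15, adjusted p = 0.358 by limma) in siELOVL2 versus control and 0.52 (SE 0.15, adjusted p = 0.0913, and 0.0355 with library weights) in double knockdown versus siELOVL5. With the replicate number as a block, limma called both (adjusted p = 0.0236 and 0.00173) and also double knockdown versus control (0.0151).

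The average over both, of the 6 libraries with against the 6 without the ELOVL2 siRNA, was added after the values had been seen. By it, ELOVL6 was higher with that siRNA by 0.42 (SE 0.11, adjusted p = 0.0263 by limma). That call was kept in 5 of the 12 fits that left out a library, with adjusted p of 0.0699 without control replicate 1, 0.0719 without control replicate 2, 0.0622 and 0.0682 without siELOVL2 replicates 2 and 3, 0.0630 without siELOVL5 replicate 1 and 0.0512 and 0.0576 without double-knockdown replicates 2 and 3. It was also lost without the intensity trend (0.0775). The estimate stayed between 0.37 and 0.51 in all 12 fits.

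ELOVL7, which acts on saturated chains of C16 to C20, had lower estimates with the ELOVL2 siRNA, which were not called in the fit over all libraries. It stood at 106, 126 and 163 normalized counts in siELOVL2 and at 101, 101 and 146 in the double knockdown, against 125, 191 and 249 in siELOVL5 and 128, 174 and 179 in the control. The groups overlapped in each comparison. The differences were -0.29 (SE 0.25, adjusted p = 0.658 by limma) in siELOVL2 versus control, -0.66 (SE 0.25, adjusted p = 0.180) in double knockdown versus siELOVL5 and -0.48 (SE 0.17, 95% interval -0.86 to -0.10, adjusted p = 0.112) averaged over both. The average was called with library weights (adjusted p = 0.0221 by limma) and without siELOVL5 replicate 1 (-0.61, adjusted p = 0.0342). It was also called with the replicate number as a block (0.00519). That block further called double knockdown versus siELOVL5 (0.0121) and double knockdown versus control (0.0426).

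ELOVL3, an elongase best known from brown fat and sebaceous glands of mice, was too low here for differences of this size to be detected. It had 7, 10 and 17 reads in siELOVL2, 4, 17 and 8 in siELOVL5, 7, 10 and 9 in the double knockdown and 11, 12 and 8 in the control. The groups overlapped in all comparisons. Its 95% interval in siELOVL2 versus control ran from -1.05 to 0.84 on the log2 scale.

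Under the ELOVL5 siRNA no untargeted elongase was called. In siELOVL5 versus control the differences were 0.19 for ELOVL1 (95% interval 0.01 to 0.37, adjusted p = 0.513 by limma), -0.20 for ELOVL6 (-0.52 to 0.13, adjusted p = 0.712) and 0.19 for ELOVL7 (-0.35 to 0.72, adjusted p = 0.853). In double knockdown versus siELOVL2 they were 0.02 for ELOVL1 (-0.16 to 0.20), -0.01 for ELOVL6 (-0.33 to 0.32) and -0.18 for ELOVL7 (-0.72 to 0.36), each with an adjusted p of 1 by limma. The ELOVL1 interval of the first comparison holds both differences seen with the ELOVL2 siRNA (0.33 and 0.16), and that of the second holds the smaller one.

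Counted over the 6 members that passed the filter, with the target included, 1 was called in siELOVL2 versus control, where 1.36% of all tested genes were called, and 1 in siELOVL5 versus control, where 0.139% were called (0.531% with the replicate number as a block). In double knockdown versus control 3 were called (ELOVL1, ELOVL2 and ELOVL5), against 4.42% of all tested genes. In double knockdown versus siELOVL5 1 was called (2.77% of all), and in double knockdown versus siELOVL2 1 (0.0590%). In the averages, 3 members were called for the ELOVL2 siRNA (ELOVL1, ELOVL2 and ELOVL6; 9.08% of all) and 1 for the ELOVL5 siRNA (0.450%). Beside the target, 2 of the other 5 members tested were thus called in the average for the ELOVL2 siRNA. Both averages were added after the values had been seen.

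The summed level of the 3 fibroblast and pericyte markers moved with the same split, at 268 to 355 with the ELOVL2 siRNA and 362 to 460 without it. COL1A1 made up most of that sum and COL3A1 was at or near 0 (0 to 0.667) in all libraries. The summed level of the markers of the labelled cells was 27151 to 28094 in siELOVL2, 25568 to 31555 in siELOVL5 and 24942 to 29250 in the double knockdown, against 33199 to 33686 in the control. By that sum, every control library lay above every library with an siRNA against ELOVL2 or ELOVL5, as in the comparison in which ELOVL1 was called. VIM, at 13122 to 24170 over all libraries, was the largest part of that sum. KRT8 did not share the fall, at 6613 to 8969 in the double knockdown against 5179 to 7685 in the control. How many of all tested genes were lower with either of these splits was not counted. The part of either sum in the ELOVL1 and ELOVL6 values was not tested.

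Whether the siRNAs acted independently on the log2 scale was tested as an interaction. None of the 18648 genes was called (0%), with 522 at an unadjusted p under 0.05, and without the intensity trend limma called 9. Each of the 6 members had an adjusted p of 0.996. The estimates were -0.17 (95% interval -0.43 to 0.09) for ELOVL1, 0.19 (-0.27 to 0.65) for ELOVL6, -0.37 (-1.13 to 0.39) for ELOVL7 and 0.23 (-0.05 to 0.52) for ELOVL5. The data allow departures of any size within those intervals.

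**Figure D4:**
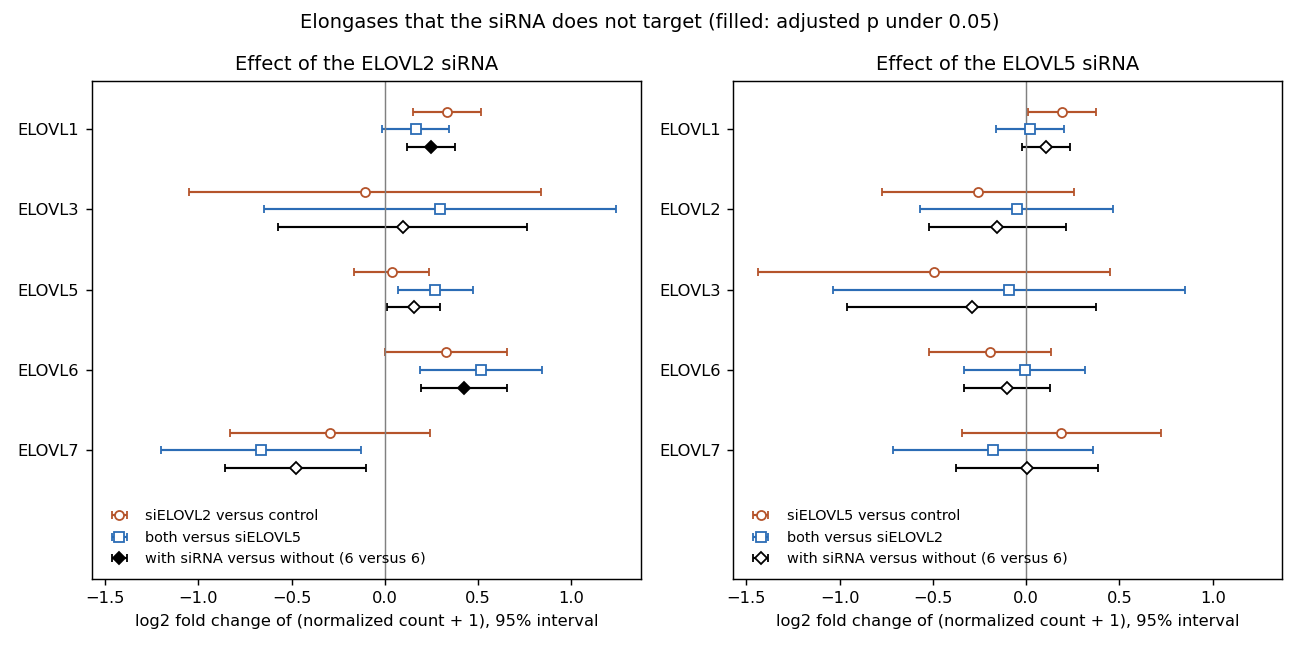
Log2 fold changes (horizontal axis, of normalized count plus 1, with 95% intervals) of the elongases that an siRNA does not target, for the ELOVL2 siRNA (left) and the ELOVL5 siRNA (right), without the other siRNA, with it, and averaged over 6 libraries with against 6 without. Filled symbols have an adjusted p under 0.05, which holds for ELOVL1 (0.25) and ELOVL6 (0.42) in the average for the ELOVL2 siRNA and for none on the right. The averages were added after the values had been seen.

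The genes that work beside the elongases were taken as 7 lists with 54 genes, of which 49 passed the filter. In siELOVL2 versus control 0 of the 49 were called, and in siELOVL5 versus control 1 was, lower (0.123% of all tested genes). In double knockdown versus control 4 were called higher (2.15% of all tested genes) and 2 lower (2.27%), and in double knockdown versus siELOVL5 2 higher (1.36%) and 1 lower (1.41%). In the average for the ELOVL2 siRNA 9 were called higher (5.04%) and 3 lower (4.04%). The median log2 fold change of the 49 in that average was 0.11, beside 0.02 over all tested genes.

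Of the transcription regulators, SCAP, the escort protein that carries SREBP to the Golgi, rose with the ELOVL2 siRNA. Averaged over that siRNA, the difference was 0.37 (SE 0.06, adjusted p = 0.00178 by limma). It stood at 485, 545.5 and 474 normalized counts in siELOVL2 and 524, 544.5 and 587 in the double knockdown, against 409, 423 and 409 in siELOVL5 and 421, 383 and 388 in the control. The 6 libraries with that siRNA lay above the other 6, as they did for 3.51% of all tested genes. The difference was 0.47 (SE 0.08, adjusted p = 0.00597 by limma) in double knockdown versus control and 0.41 (adjusted p = 0.0186) in double knockdown versus siELOVL5, but not called in siELOVL2 versus control (0.33, adjusted p = 0.0676). The call against siELOVL5 was lost without double-knockdown replicates 2 or 3 or siELOVL5 replicate 1 (0.0618 to 0.0698), without the trend (0.0619) and in a fit of those groups alone (0.154). SREBF1, which encodes SREBP-1, gave 0.31 (adjusted p = 0.591) in double knockdown versus control.

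RXRA, the shared partner of LXR and PPAR receptors, was lower with the ELOVL5 siRNA, with an average difference of -0.56 (SE 0.05, adjusted p = 3.59e-04 by limma). It stood at 869, 942 and 845 normalized counts in siELOVL5 and 1161, 1132 and 1289 in the double knockdown, against 1430 to 1628 in siELOVL2 and 1461 to 1534 in the control. It fell by 0.75 (SE 0.08, adjusted p = 0.00110 by limma) in siELOVL5 versus control and by 0.32 (adjusted p = 0.0362) in double knockdown versus control, and was higher by 0.43 (adjusted p = 0.0123) in double knockdown than in siELOVL5. In double knockdown versus siELOVL2 the difference was -0.37 (adjusted p = 0.345). A fit of the compared groups alone gave 0.0652 for siELOVL5 versus control and 0.161 for double knockdown versus siELOVL5. The call in double knockdown versus control was lost without any control library, double-knockdown replicates 1 or 2 or siELOVL2 replicate 2 (0.0615 to 0.137).

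PPARD, a fatty acid receptor, was at 351 to 408 in the double knockdown and 496 to 503 in siELOVL5 (-0.38, adjusted p = 0.0397 by limma). That call was lost without any double-knockdown or siELOVL2 library, siELOVL5 replicates 1 or 2 or control replicate 1 (0.0527 to 0.136), and in a fit of those groups alone (0.197).

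FADS3, a desaturase acting on sphingoid bases, was at 781 to 884 normalized counts in the double knockdown and 476 to 518 in the control, higher by 0.73 (SE 0.17, adjusted p = 0.0288 by limma). In siELOVL5 its libraries spread from 465.5 to 854, so the double knockdown overlapped them. In siELOVL2 alone FADS3 was at 685 to 834 (0.63 versus control, adjusted p = 0.0941 by limma). Its difference in double knockdown versus siELOVL2 was 0.10. Without any control or double-knockdown library the call was lost (adjusted p 0.0652 to 0.108). SLC27A4, an acyl-CoA synthetase and fatty acid transporter, rose by 0.48 (adjusted p = 0.0137 by limma) in double knockdown versus control. That call was lost without control replicates 1 (0.0513) or 2 (0.0787) or double-knockdown replicate 1 (0.0638). In siELOVL2 versus control SLC27A4 gave 0.37 (adjusted p = 0.0762 by limma).

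CERS6, a ceramide synthase that prefers palmitoyl-CoA, fell to 540 to 619.5 normalized counts in the double knockdown, against 749 to 838 in the control (-0.43, SE 0.10, adjusted p = 0.0326 by limma). The call was lost without any of those 6 libraries (0.0607 to 0.139) or siELOVL2 replicate 2 (0.0526). In siELOVL2 alone CERS6 was at 529 to 621 (-0.42 versus control, adjusted p = 0.0675 by limma). Its difference in double knockdown versus siELOVL2 was -0.01. Without the intensity trend the pairwise calls of CERS6, FADS3 and PPARD were lost, as were those of RXRA in double knockdown versus control and versus siELOVL5 (adjusted p 0.0592 to 0.107 by limma). Of the elongation cycle partners, which carry out the steps after condensation, 0 of 6 were called in any pairwise comparison. Of the genes that supply malonyl-CoA and palmitate, 0 of 8 were. Those comparisons called 0.0590% to 4.42% of all tested genes. In the average for the ELOVL2 siRNA, 1 of the 6 was called higher (5.04% of all tested genes) and 1 of the 8 lower (4.04%). Both calls were lost without the intensity trend (adjusted p 0.0624 and 0.0767 by limma).

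**Figure D5:**
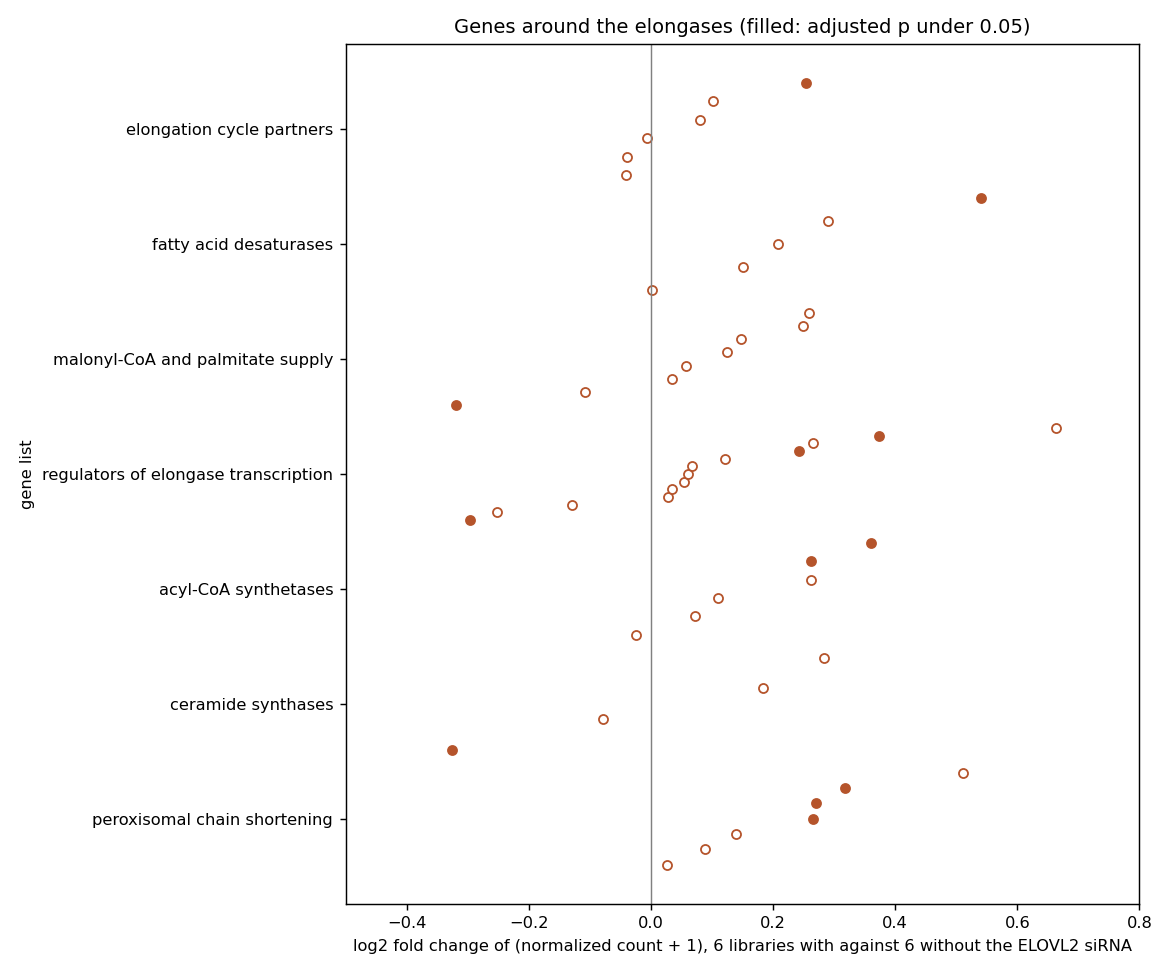
Log2 fold change (horizontal axis, of normalized count plus 1) of the 49 tested genes around the elongases, by list, for 6 libraries with against 6 without the ELOVL2 siRNA. Filled points have an adjusted p under 0.05, 9 of them higher and 3 lower.

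The genes whose levels ran most like each untargeted elongase over the 12 libraries were found by Pearson correlation of log2(value + 1), among genes at or above the median level of 93.8. They are a description only, since all points share the normalization and the 4 treatments. ELOVL1 ran most like NEU1 (r = 0.938), a lysosomal sialidase, AGTRAP (0.933) and TMEM165 (0.930). NEU1 was at 803 to 864 in siELOVL2 and 813 to 899 in the double knockdown, against 529 to 703 in siELOVL5 and 457 to 508 in the control. As for ELOVL1, and for 3.51% of all tested genes, the libraries with the ELOVL2 siRNA lay above the others. NEU1 was picked for its likeness to ELOVL1, so the shared split adds no support.

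ELOVL6 ran most like KRT8 (r = 0.983), an epithelial keratin, FLOT2 (0.979), a membrane scaffold protein, and PITPNA (0.970), a phosphatidylinositol transfer protein. KRT8 was at 6587 to 8547 in siELOVL2 and 6613 to 8969 in the double knockdown, against 5284 to 5599 in siELOVL5 and 5179 to 7685 in the control. ELOVL7 ran most like ADAMTS9 (r = 0.957), a secreted metalloprotease, KRCC1 (0.954) and BNIP3L (0.952). For ELOVL3, at 4 to 17 reads, the highest correlations were lower, with TEX261 (0.811), CEBPZ-AS1 (0.806) and LRRC37A3 (0.806), of which the last has near-identical copies and CEBPZ-AS1 is antisense to another gene.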

How the data were processed

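Per the labels, 12 RNA libraries were read from both ends with 36 bases. The authors deposited 1 table of normalized signal values per gene and library. The aligner, counting tool and genome build were not given in the sources used here. Each column of the table holds the same set of values, which is what quantile normalization of counts gives, and changes in total RNA cannot be seen. Reads were recovered for values of up to 60 reads from the order of tied values. Depth was estimated from the same steps, and limits from 0 reads cover counting error only.

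limma 3.58.1 (R 4.3.3) was run on log2(value + 1), all 4 groups in 1 fit with 8 residual degrees of freedom and an intensity trend. Genes that reached 1 in 3 or more libraries were tested (18648), with Benjamini-Hochberg adjustment within each comparison at 0.05. The averages for the ELOVL2 and the ELOVL5 siRNA were added after the values had been seen. Fold changes of low genes are understated on this scale. The fit and the read recovery were tested on simulated data. Alternatives were a pseudocount of 5, no filter or a minimum of 10, no intensity trend, the compared groups alone, a replicate block, scaling by trimmed means of M-values (TMM), library weights, other gene lengths and leaving out each library. The labels call the replicates biological and do not say how they were separated, so p-values measure the spread between these libraries. The labels give a single batch.

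Replicate numbers were read as pairing for siELOVL5 versus control, since the deviations of all 3 same-numbered pairs correlated at over 0.1 (0.113 to 0.336). The values given for that comparison are still from the fit without a block, unless a block is named. A replicate block changed no member's call there, with adjusted p by limma of 0.32 for ELOVL1 and 0.2485 for ELOVL6. In the other pairwise comparisons at least 1 same-numbered pair fell under 0.1, although others reached up to 0.628. The block added calls of members in siELOVL2 versus control, double knockdown versus control and double knockdown versus siELOVL5, given below.

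Lengths and sequences are from GENCODE 29. In the lists 4 genes, HACD1 to HACD4, were matched by older symbols. The members and lists were chosen with earlier results of these data known. Named list genes are up to 3 called members a list by smallest adjusted p in the pairwise comparisons or the interaction, and the 3 genes most correlated with each untargeted elongase. Proteins were not analysed here, and some list and marker genes are not reported here.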

Additional observations from a re-analysis of the deposited data

How the results depend on the processing

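Of the counts of members called in siELOVL2 versus control, siELOVL5 versus control, double knockdown versus control, double knockdown versus siELOVL5 or siELOVL2, the interaction and both averages, 148 of 157 alternative values stayed within 1.5 times. A fall from 3 members called to 2 is within 1.5 times, so that share does not show such a loss. In double knockdown versus control ELOVL1 kept its call in 12 of 20 alternatives. In the average for the ELOVL2 siRNA ELOVL1 kept it in 15 of 19 and ELOVL6 in 11 of 19. With library weights 2 members were called in siELOVL2 versus control and 2 in double knockdown versus siELOVL5, and without the intensity trend 1 in the average for the ELOVL2 siRNA. Leaving out a library gave 1 to 2 in siELOVL2 versus control and 1 to 3 in that average.

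Outside siELOVL5 versus control and siELOVL2 against siELOVL5, at least 1 same-numbered pair correlated at under 0.1, and over all groups same-numbered libraries correlated at 0.029 to 0.628 (18 pairs) and others at -0.642 to 0.306 (36 pairs). A library correlated best with its own number in 31 of 36 cases, a hint from the data and not from the design. With the replicate block 3 members were called in siELOVL2 versus control (beside ELOVL2, ELOVL1 at an adjusted p of 0.0386 and ELOVL6 at 0.0236), 5 in double knockdown versus control (beside the 3 called without it, ELOVL6 at 0.0151 and ELOVL7 at 0.0426) and 4 in double knockdown versus siELOVL5 (beside ELOVL2, ELOVL5 at 0.0491, ELOVL6 at 0.00173 and ELOVL7 at 0.0121). The block also called ELOVL7 in the average for the ELOVL2 siRNA (0.00519). The block called 861, 99, 1866 and 1368 genes in siELOVL2, siELOVL5 and double knockdown versus control and in double knockdown versus siELOVL5, and 2755 and 214 in the averages for the ELOVL2 and the ELOVL5 siRNA.

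Over all tested genes the calls numbered 254, 26 and 825 in siELOVL2, siELOVL5 and double knockdown versus control, 516 and 11 in double knockdown versus siELOVL5 and versus siELOVL2, and 1694 and 84 in the averages. In the same order, library weights gave 1569, 145, 2241, 1251, 27, 3370 and 344. The fit without the trend gave 101 (siELOVL2 versus control), 413 (double knockdown versus control), 200, 21, 1122 and 44, and 9 for the interaction. With only the groups compared there were 412 for siELOVL2 versus control, 1 for siELOVL5 versus control, 21 for double knockdown versus siELOVL5 and 1 versus siELOVL2. Leaving out a library gave 63 to 829, 9 to 39, 325 to 1775, 154 to 791, 2 to 16, 1051 to 2522 and 29 to 145, with the lowest without control replicate 2, except for double knockdown versus siELOVL5 (double-knockdown replicate 2) and versus siELOVL2 (siELOVL2 replicate 3), and the highest without siELOVL5 replicate 3. The cause was not tested.

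The members' fold changes that changed sign had not been called; the largest were those of ELOVL3, 0.40 in the interaction and 0.30 in double knockdown versus siELOVL5. With library weights ELOVL3 in double knockdown versus siELOVL2 was 0.0046 and ELOVL7 in the average for the ELOVL5 siRNA -0.11. Leaving out a library, ELOVL3 ran from -0.40 to 0.16 (siELOVL2 versus control), -0.13 to 0.70 (double knockdown versus siELOVL5), -0.36 to 0.21 (versus siELOVL2), -0.0212 to 0.81 (interaction) and -0.12 to 0.30 (average for the ELOVL2 siRNA). ELOVL5 ran from -0.0646 to 0.12 in siELOVL2 versus control, and ELOVL7 from -0.0397 to 0.46 in siELOVL5 versus control and from -0.11 to 0.14 in the average for that siRNA. In double knockdown versus siELOVL2, ELOVL1 ran from -0.0171 to 0.0524, ELOVL2 from -0.25 to 0.0872 and ELOVL6 from -0.12 to 0.10, and ELOVL2 ran from -0.0098 to 0.39 in the interaction.

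The control share of ELOVL1 was 25.9% with the longest transcript. With the mean transcript length the shares of ELOVL2, ELOVL3, ELOVL5, ELOVL6 and ELOVL7 were 2.66%, 0.321%, 46.4%, 26.4% and 2.89%. Depth limits ELOVL3, at 4 to 17 reads, and ELOVL4, at 0.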

Other observations

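Libraries with the same number ranked alike for several elongases. ELOVL6 and ELOVL7 were lowest in the library numbered 1 and highest in that numbered 3 in all 4 groups, ELOVL5 was highest in number 3 in all 4, and ELOVL2 was lowest in number 3 in all 4. Taken within a number, ELOVL6 in siELOVL2 over control was 1.246, 1.363 and 1.167 for numbers 1, 2 and 3, and in double knockdown over siELOVL5 1.418, 1.357 and 1.521, so all 6 ratios lay above 1. ELOVL7 gave 0.824, 0.721 and 0.907, and 0.806, 0.529 and 0.584, all below 1. ELOVL1 lay above 1 in all 6, but also where only the ELOVL5 siRNA differs. Its ratios were 1.153, 1.151 and 1.119 in siELOVL5 over control and 1.025, 1.009 and 1.011 in double knockdown over siELOVL2. The 3 ratios of ELOVL5 in double knockdown over siELOVL5 were also above 1, at 1.222 or less. The rank pattern was noticed in these values and was not tested, and the labels do not say what a number marks.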
